A study of Sus scrofa with 37 samples.

Results

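Heat shock proteins and chaperones were followed through the first days after a blunt crush injury, or contusion, of skeletal muscle in Bama minipigs, a small breed of pig. Members were the rows of the gene table whose symbols belong to the HSPA, HSPB, HSPD, HSPE and HSPH families, the J-proteins (DNAJA, DNAJB and DNAJC), the BAG genes 1 to 6, the subunits CCT2 to CCT8 and TCP1 of the cytosolic chaperonin, or are ZFAND2A, HSF1 or HSF2. This gave 64 of the 9418 rows, all of which passed the filter on low counts. HSP90AB1 and HSP90B1, which the symbol patterns do not cover, were followed as a class of 2 beside them. The 64 comprised 3 small heat shock proteins, 9 HSP70 and HSP110 proteins, 2 mitochondrial and 8 cytosolic chaperonin genes, 31 J-proteins (4 of class A, 8 of class B and 19 of class C), 5 BAG genes, HSF1, HSF2 and ZFAND2A, and 3 genes whose symbols match although their products are not chaperones of these families (HSPB11, HSPBP1 and HSPBAP1). The inducible genes HSPA1A and HSP90AA1 and the muscle genes HSPB6 and HSPB7 were not analysed here.

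The design text names 8 Bama minipigs and 4 replicates at each of 7 times after injury, and RNA was sequenced from whole muscle. There were 37 libraries, of which 9 were titled control and the others came from injured muscle, 4 at each time from 4 h to 24 h in steps of 4 h and 4 at 48 h. Strain and tissue were shared by all groups, the same mechanical treatment is written on the control libraries as on the others, and neither age nor sex is used here. Which libraries share a pig is not stated, so p-values measure the spread between libraries. In whole muscle, fewer cells of a type and less RNA per cell cannot be told apart.

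Chaperones bind unfolded proteins and prevent their aggregation. HSP70 proteins do so in cycles of ATP use that J-proteins start and nucleotide exchange factors such as the BAG proteins end, while small heat shock proteins hold unfolded clients without ATP and chaperonins fold proteins such as actin and tubulin inside a closed barrel. In striated muscle, HSPB8 and BAG3 work with HSPA8 in the removal of damaged filamin C, the actin crosslinker of the Z-disc, by selective autophagy. Transcription of many of these genes after heat and other protein-damaging stress is driven by the factor HSF1.

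Levels are in CPM, a gene's count relative to the total of its library, after scaling of the libraries by the trimmed mean of M-values (TMM), and a gene was called where its edgeR quasi-likelihood p, adjusted by Benjamini-Hochberg over the 9411 genes tested, was under 0.05. Library totals ran from 9860426 to 22877840 counts, and 3 counts, taken as the floor, stood at 0.108 to 0.378 CPM for counting error alone. Libraries also fell into 5 sets by their totals and by the levels of C1QBP, NDUFAF8 and ND6, none of which is a member. All 16 h libraries and 3 of the 8 h libraries were in set 1, which held 2 controls (replicates 1 and 2). All 48 h libraries were in set 5 with 3 controls. Of the 4 h libraries, 3 were in set 2 and 1 in set 3, and neither set held a control. No 4 h library could be compared with controls of its own set. No label explains the sets, and results were therefore also computed with the sets as a term in the model and against controls of the same set alone.

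Over the 7 times together, 47 of the 64 members changed, where 83.2% of all genes tested did. Against the controls, 4 members were called at 4 h, all higher, where 18.3% of all genes were called (9.22% higher and 9.06% lower). At 8 h there were 36 members (24 higher, 12 lower), against a background of 54.0% (25.8% and 28.2%). Calls fell to 17 members at 12 h (12 higher, 5 lower), where the background was 31.0% (16.3% and 14.7%). At 16 h 29 members were called (13 higher, 16 lower) beside 53.1% of all genes (25.3% and 27.8%). The count was 30 at 20 h (16 higher, 14 lower) beside 51.5% (25.4% and 26.2%), and 27 at 24 h (16 higher, 11 lower) beside 53.9% (26.8% and 27.1%). At 48 h 12 members were called (3 higher, 9 lower), beside 20.3% of all genes (12.8% and 7.45%). The share of members called was 56.25% at 8 h, close to that of all genes, and below it at the other 6 times. The median log2 change of the 64 was 0.19 at 8 h, where that of all genes was -0.07, and -0.16 at 48 h, where that of all genes was -0.02.

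The split between higher and lower rested on the scaling. When libraries were scaled by their column totals the median of all genes moved from -0.04 to 0.31 at 16 h and from -0.02 to 0.46 at 24 h. At 20 h it moved from -0.04 to 0.29, and at 48 h from -0.02 to 0.34. At 16, 20, 24 and 48 h the members called then numbered 27, 29, 34 and 10 higher, and 9, 7, 7 and 4 lower, respectively. At 4, 8 and 12 h they numbered 1, 16 and 7 higher, and 4, 13 and 6 lower. Of all 9411 genes tested, 1691, 4676, 2386, 5000, 5076, 5716 and 3348 were then called at the 7 times in order, in either direction. Changes below are those relative to the TMM scale, on which the median of all genes lay near 0.

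**Figure D1:**
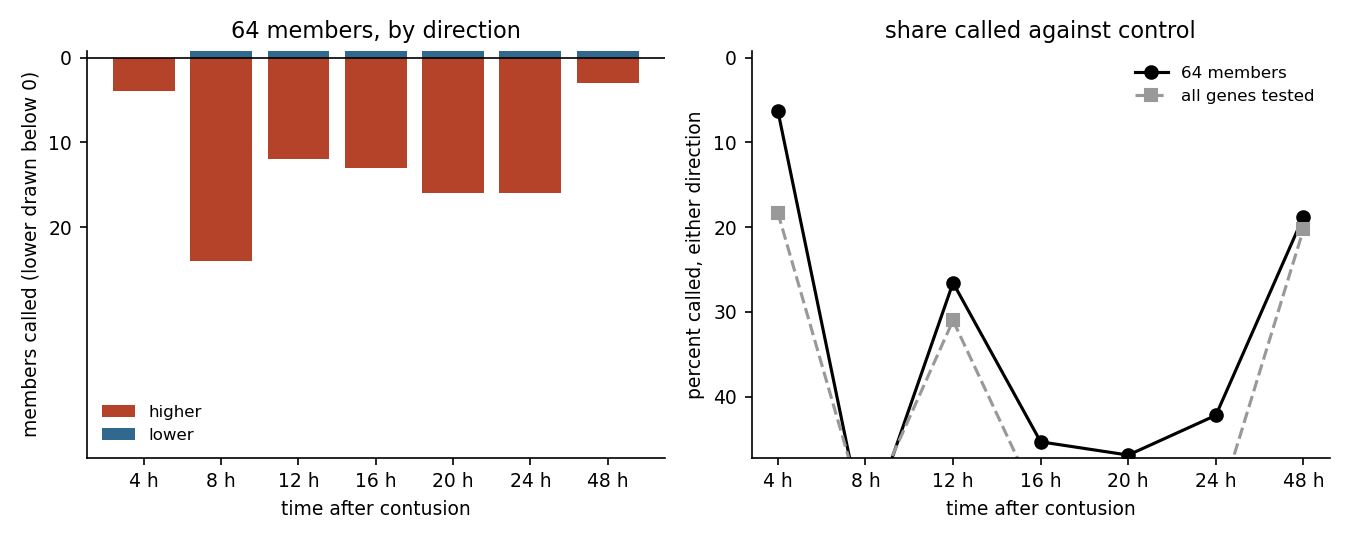
Members called against control at each time. Left, numbers of the 64 members called higher (positive values) and lower (negative values). Right, the percent of the 64 members and of the 9411 genes tested that were called in either direction, also on an inverted axis. The count of higher members was largest at 8 h, at 24, and the share of members called was under or close to that of all genes. The axes may not show the full range of counts and shares, which are given in the text.

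Markers of several other cell types moved at the same times. The table held 3 of 6 listed neutrophil markers, and all 3 were higher at 8, 12, 16 and 20 h and none at 4 h or 48 h, and their sum was 0.293 to 6.94 CPM in the controls, 11.15 to 194 CPM at 8 h and 6.05 to 33.6 CPM at 24 h. Of 6 macrophage markers, 4 were higher at 8 h, 5 at 16, 20 and 24 h, and all 6 at 48 h, with sums of 27.2 to 89.1 CPM in the controls and 194 to 336 CPM at 16 h. Both smooth muscle markers were lower from 4 h to 24 h, 3 of 4 fibroblast markers were lower and 1 (PDGFRA) higher at 8 h, and of 3 adipocyte markers 2 were lower at 8 h and 48 h and 3 at 12 h and 20 h. The sum of the 4 endothelium markers stayed within its control range, 540 to 1329 CPM, in every injured library, and was 583 to 779 CPM at 8 h. Both erythrocyte markers were higher at 16 h. The part of these shifts in the changes of the chaperones was not tested.

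Of 6 listed skeletal muscle markers, CKM, MYH7 and TNNT3 were in the table, and muscle transcripts were abundant in every library. Their sum was 37945 to 64561 CPM in the controls, 52958 to 69761 CPM at 4 h, 38333 to 44131 CPM at 8 h and 31202 to 69189.6 CPM at 12 h. It was 21611 to 27828 CPM at 16 h, 18409 to 52769 CPM at 20 h, 11209 to 23505 CPM at 24 h and 10214 to 44567 CPM at 48 h. The 3 did not move together: MYH7, the myosin of slow fibres, was called lower at every time but 4 h, TNNT3, a fast-fibre troponin, higher at 4 h alone, and CKM, the muscle creatine kinase, lower at 24 h alone. MYH7 was uneven in the controls, from 2451 CPM in replicate 7 to 39021 CPM in replicate 8. Its 8 h libraries, at 3052 to 5160 CPM, lay inside that range.

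The 48 h libraries did not form 1 group by these markers. Macrophage sums were 348 and 229.9 CPM in replicates 1 and 3 but 56.8 and 60.8 CPM, inside the control range, in replicates 2 and 4. The muscle marker sums were 10214 and 16302 CPM in replicates 1 and 3, and 44567 and 36975 CPM in replicates 2 and 4. Of the members, HSPB8 stood at 2632 and 1789 CPM in replicates 1 and 3 and at 1175 and 562 CPM in the others. Without replicates 2 and 4, 17 members were called at 48 h (6 higher, 11 lower), among them 11 of the 12 called with all 4 libraries. Calls over all genes also rose, from 1906 of the 9411 tested with all 4 libraries to 3448 of the 9418 tested without these 2. The log2 change of HSPB8 was then 1.40 (edgeR adjusted p = 0.00124), and DNAJB6, the member no longer called, stood at -0.64 (edgeR adjusted p = 0.0637). The part of the marker differences in the 48 h results, and of the fall of muscle markers in the others, was not tested.

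Of the 64 members, 28 were called higher at 1 time or more and lower at none, 18 lower and never higher, 5 in both directions and 13 at no time. The 28 that rose did not peak together. The highest mean of injured muscle fell at 8 h for 14 of them and at 24 h for 8, with 5 more at 20 h and 1 at 12 h. These patterns and peak times were not counted over all genes, of which 83.2% changed over the 7 times together. Whether they set the members apart from other genes was not tested. HSPB8 and HSPA13 were called higher at all 7 times, DNAJC14 at 6, and HSPA5, ZFAND2A, CCT2 and CCT5 at 5. BAG2, DNAJC19, DNAJC28 and HSPE1 were called lower at 5 times each.

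**Figure D2:**
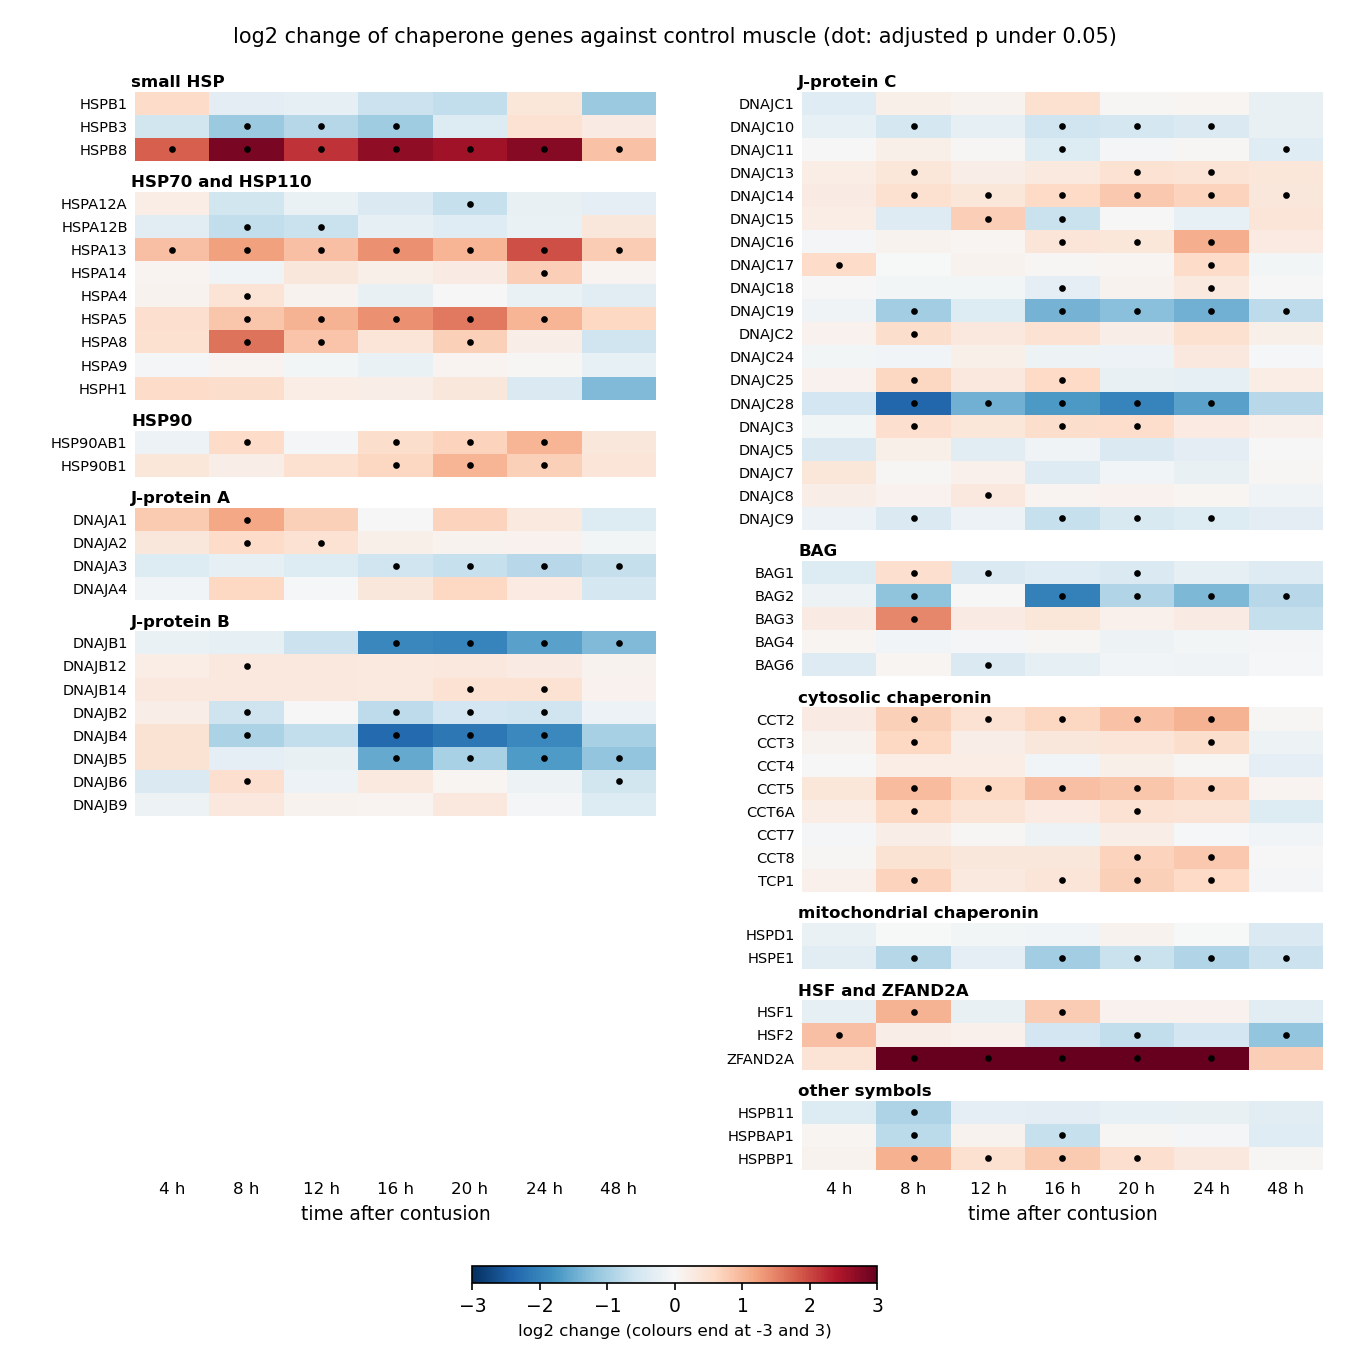
Log2 change of each of the 64 members and of the HSP90 genes against control muscle, by class (rows) and time (columns); red is higher, blue lower, and a dot marks an edgeR adjusted p under 0.05. HSPB8 and ZFAND2A are dark red over several columns, and DNAJB1 and DNAJB5 are blue from 16 h, DNAJB4 deepest from 16 h to 24 h and DNAJC28 deepest at 8 h.

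Among the small heat shock proteins, HSPB8 had the largest change. HSPB8 (chromosome 14, 33626125 to 33639824, in the build Sscrofa11.1) is the ATP-independent partner of BAG3. Its level lay between 629.9 and 1323 CPM in the 9 controls, with a median of 763 CPM. At 4 h the 4 libraries stood at 935, 4229.7, 4326 and 2073 CPM, at 8 h at 6671, 6601, 6398 and 4466 CPM, and at 24 h at 5157, 4306, 6100.2 and 6601 CPM. The first 4 h library was inside the control range and the other three were above it, and from 8 h to 24 h every library was above every control. The log2 change was 1.79 ± 0.30 (SE, edgeR adjusted p = 0.000152) at 4 h and 2.85 ± 0.30 (SE, edgeR adjusted p = 1.02e-08) at 8 h. At 12, 16, 20 and 24 h it was 2.17, 2.66, 2.55 and 2.73 on the same scale. At 48 h the libraries had spread to 2632, 1175, 1789 and 562 CPM and the log2 change was 0.88 ± 0.30 (SE, edgeR adjusted p = 0.0381). Against the controls of the same set, the log2 change was 2.74 (edgeR adjusted p = 0.00115) at 8 h and 2.43 (edgeR adjusted p = 0.00246) at 16 h.

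HSPB3, a small heat shock protein found mainly in heart and skeletal muscle, changed the other way. It lay between 47.1 and 100.2 CPM in the 9 controls, with a median of 82.9 CPM, and at 8 h the libraries were at 32.6, 32.0, 33.3 and 43.1 CPM, all below the controls. Its log2 change was -1.12 ± 0.28 (SE, edgeR adjusted p = 0.00113) at 8 h, and it was -0.85 and -1.07 at 12 h and 16 h. At 24 h the libraries stood at 76.3, 137, 86.9 and 119 CPM, within and above the control range, and no change was called (log2 change 0.45 ± 0.26 SE, edgeR adjusted p = 0.134). HSPB1, the widely expressed small heat shock protein also called HSP27, was called at no time. Its controls lay between 34.3 and 214 CPM, and at 4 h its libraries stood at 95.1, 123, 341 and 156 CPM, 2 of them above every control. With sets in the model, edgeR did not call HSPB8 at 48 h (adjusted p = 0.0532). Single libraries decided the edgeR call of HSPB8 at 48 h (control replicate 1, 4, 5, 6 or 9 or 48 h replicate 1 or 3, adjusted p 0.0507 to 0.422) and HSPB3 at 12 h (12 h replicate 1 or 2, adjusted p 0.0646 to 0.103). At 48 h HSPB1 had a log2 change of -1.11 ± 0.42 (SE, edgeR adjusted p = 0.0583), and edgeR called it without control replicate 1, 5, 6 or 7 or 48 h replicate 4 (adjusted p 0.0255 to 0.0484).

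BAG3 (chromosome 14, 129510240 to 129533998), the co-chaperone that links HSPB8 to HSPA8, was called at 8 h and at no other time. Control libraries lay between 144 and 451 CPM, with the 8 h libraries at 957, 872, 879.8 and 558 CPM, all above them. At 4 h they stood at 161, 398, 575 and 262 CPM, and at 12 h at 417, 342, 242 and 399 CPM, both overlapping the controls. For BAG3 the log2 change was 1.47 ± 0.24 (SE, edgeR adjusted p = 1.04e-05) at 8 h, and 0.25 ± 0.25 (SE, edgeR adjusted p = 0.479) at 12 h. With the sets as a term the log2 change at 8 h was 1.37 (edgeR adjusted p = 0.000268), and against the controls of the same set it was 1.45 (edgeR adjusted p = 0.00365). At 48 h the 4 libraries lay close together at 185, 163, 177 and 195 CPM, near the low end of the controls (log2 change -0.71 ± 0.27 SE, edgeR adjusted p = 0.0544). At that time edgeR called it without control replicate 1, 5 or 7 (adjusted p 0.0222 to 0.0413).

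**Figure D3:**
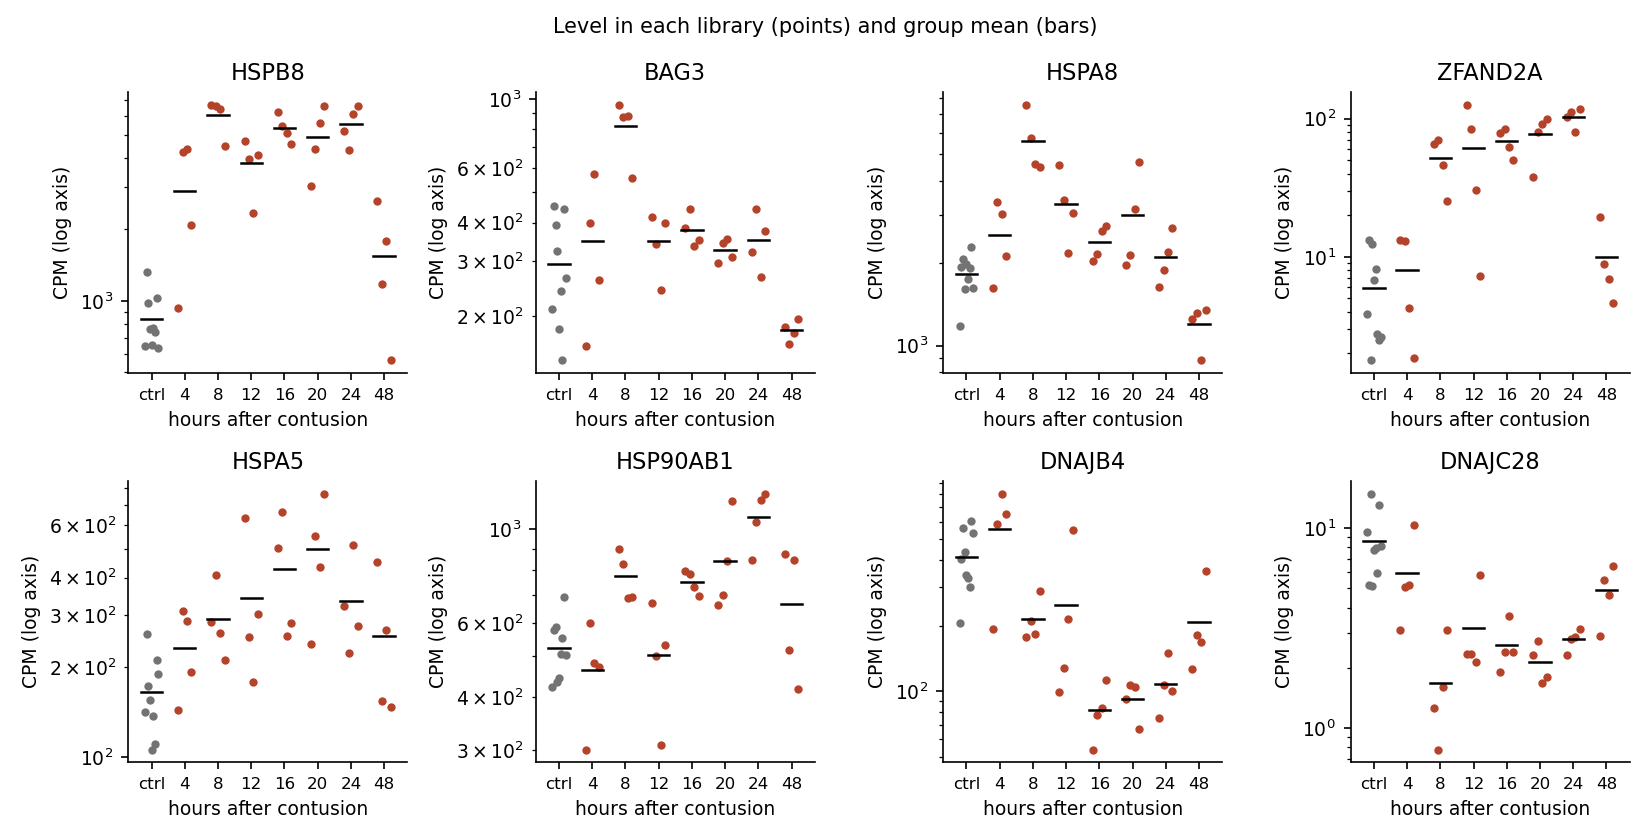
CPM (log axis) of 8 genes in each of the 37 libraries (points: grey for control, red for injured) by hours after contusion, with the group mean as a bar. HSPB8 and ZFAND2A stay high from 8 h to 24 h, BAG3 and HSPA8 stand highest at 8 h, HSPA5 is highest at 20 h and HSP90AB1 at 24 h, and DNAJB4 and DNAJC28 are lower at those times than in control muscle.

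HSPA8 (chromosome 9, 49982278 to 49986760), the constitutive cytosolic HSP70, was higher at 8 h and less so at later times. In the controls it lay between 1180.0 and 2300.3 CPM, and at 8 h the libraries stood at 7581, 5734, 4601 and 4509.5 CPM, none of which overlapped the controls. At 12 h they were at 4564, 3391, 2173 and 3046 CPM, and at 16 h at 2040.2, 2159.8, 2623 and 2730.2 CPM. HSPA8 had a log2 change of 1.62 ± 0.22 (SE, edgeR adjusted p = 4.21e-07) at 8 h, 0.86 ± 0.22 (SE, edgeR adjusted p = 0.00415) at 12 h, and 0.72 ± 0.22 (SE, edgeR adjusted p = 0.0076) at 20 h. At 24 h, with libraries at 1639, 1890.4, 2192 and 2685 CPM, it was 0.21 ± 0.23 (SE, edgeR adjusted p = 0.452). Sequences nearly identical to HSPA8 occur as processed pseudogenes in mammals, and how the counting treated reads shared with them is not stated, so its level is uncertain to that extent.

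The HSP70 proteins of the endoplasmic reticulum were called higher at more times. HSPA5 (BiP), the main HSP70 there, lay between 106 and 259 CPM in the controls. It stood at 505, 666, 254 and 281 CPM at 16 h, at 240.0, 554, 434 and 764 CPM at 20 h and at 322, 223, 514 and 276 CPM at 24 h. Most of these libraries were above the highest control. HSPA5 was called higher from 8 h to 24 h, with the largest change at 20 h (log2 change 1.59 ± 0.32 SE, edgeR adjusted p = 0.000138). HSPA13, a small HSP70-like protein of the microsomes, lay between 11.096 and 25.8 CPM in the 9 controls, with a median of 13.5 CPM. Its highest values were at 24 h, at 53.0, 47.3, 69.6 and 68.2 CPM, where all 4 libraries were above all controls (log2 change 1.93 ± 0.26 SE, edgeR adjusted p = 7.65e-07). HSPA14, an HSP70 of the ribosome, was called at 24 h only, when its libraries stood at 34.0, 35.1, 34.3 and 44.8 CPM beside controls of 17.0 to 31.1 CPM (log2 change 0.73 ± 0.15 SE, edgeR adjusted p = 0.00011).

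Few calls were made among the other HSP70 and HSP110 genes. HSPA9, the HSP70 of the mitochondrial matrix, lay between 389.9 and 612 CPM in the controls and was called at no time, with log2 changes between -0.25 (48 h) and 0.08 (8 h). HSPA4 was higher at 8 h alone (log2 change 0.40 ± 0.15 SE, edgeR adjusted p = 0.0205). HSPA12B, which is known from endothelium, was lower at 8 h and 12 h (log2 changes -0.73 and -0.67), and HSPA12A at 20 h (log2 change -0.68). HSPH1 (HSP110), a nucleotide exchange factor for HSP70, was called at no time; its controls lay between 27.1 and 237 CPM and its 8 h libraries stood at 135, 121, 111 and 186 CPM. At 48 h it had a log2 change of -1.32 ± 0.49 (SE, edgeR adjusted p = 0.0537), and edgeR called it without control replicate 1, 5, 6 or 7 (adjusted p 0.029 to 0.0422). Once the sets were a term, edgeR did not call HSPA8 at 20 h (adjusted p = 0.0703), HSPA5 at 8 h (adjusted p = 0.205) and 16 h (adjusted p = 0.0805), HSPA13 at 4 h (adjusted p = 0.217) and 48 h (adjusted p = 0.157) or HSPA12B at 12 h (adjusted p = 0.144). Without 1 library, edgeR no longer called HSPA8 at 20 h (20 h replicate 4, adjusted p = 0.157), HSPA5 at 8 h (control replicate 5 or 7 or 8 h replicate 1 or 2, adjusted p 0.0539 to 0.163) and HSPA5 at 12 h (12 h replicate 1, adjusted p = 0.231). In edgeR it also ended the call of HSPA5 at 24 h (24 h replicate 3, adjusted p = 0.0779), HSPA13 at 4 h (4 h replicate 2 or 3, adjusted p 0.098 to 0.178) and HSPA13 at 12 h (12 h replicate 1 or 4, adjusted p 0.0507 to 0.0855). The edgeR call was likewise lost for HSPA13 at 48 h (control replicate 2, 3, 4, 5, 7 or 8 or 48 h replicate 1 or 3, adjusted p 0.066 to 0.505), HSPA4 at 8 h (8 h replicate 4, adjusted p = 0.0643) and HSPA12B at 12 h (12 h replicate 1 or 3, adjusted p 0.0513 to 0.0645). Also decided by 1 library in edgeR was the call of HSPA12A at 20 h (20 h replicate 2, 3 or 4, adjusted p 0.0509 to 0.0778).

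HSP90AB1, the constitutive cytosolic HSP90, was higher at 8 h and from 16 h to 24 h. In the controls it lay between 423 and 693 CPM, and at 24 h its libraries stood at 848, 1044, 1173 and 1213 CPM, all above the controls (log2 change 1.03 ± 0.19 SE, edgeR adjusted p = 5.32e-05). At 8 h the log2 change was 0.57 ± 0.20 (SE, edgeR adjusted p = 0.0151). HSP90B1 (GRP94), its counterpart in the endoplasmic reticulum, lay between 54.7 and 130.3 CPM in the controls and at 85.9, 196, 196 and 317 CPM at 20 h. The first 20 h library was inside the control range and the other three were above it (log2 change 1.01 ± 0.24 SE, edgeR adjusted p = 0.000871). When sets were a term, edgeR gave no call for HSP90AB1 at 8 h (adjusted p = 0.0526). The edgeR call was lost without 1 library for HSP90AB1 at 8 h (8 h replicate 1, adjusted p = 0.0676).

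Of 14 listed HSP90 co-chaperones in the table, 3 were higher and 4 lower at 16 h, and 2 were higher and none lower at 20 h. At 24 h 2 were higher and 4 lower, and at 48 h 6 were lower and none higher. Of all genes, 53.1%, 51.5%, 53.9% and 20.3% were called at these times in either direction. With column totals 6, 5, 6 and 2 were higher and none, none, none and 1 lower, which turned the split at 16, 24 and 48 h; with sets in the model 2, 2, 1 and none were higher and none, 3, 4 and 2 lower. FKBP5, an immunophilin of HSP90 that glucocorticoids induce, was higher at 16 h, at 357, 286, 375 and 406 CPM beside 86.8 to 272 CPM in the controls (log2 change 0.84 ± 0.21 SE, edgeR adjusted p = 0.00114), and lower at 48 h (log2 change -0.88 ± 0.22 SE, edgeR adjusted p = 0.00603). PTGES3 (p23), the co-chaperone that holds the closed form of HSP90, had log2 changes of 0.46 at 8 h and 0.46 at 16 h, and UNC45A, a myosin chaperone, one of 0.57 ± 0.11 (SE, edgeR adjusted p = 4.46e-05) at 24 h. With the library sets as a term, edgeR did not call FKBP5 at 48 h (adjusted p = 0.169).

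From 16 h on, J-proteins of class B were called mostly lower. None of the 8 was called at 4 h or 12 h, 2 were higher and 2 lower at 8 h, and 4 were lower at each of 16, 20 and 24 h, with none, 1 and 1 higher. At 48 h 3 were lower. Of all genes, 28.2%, 27.8%, 26.2%, 27.1% and 7.45% were lower at 8, 16, 20, 24 and 48 h. At the same times 25.8%, 25.3%, 25.4%, 26.8% and 12.8% were higher. When libraries were scaled by column totals, 3 were higher and 4 lower at 16 h and 2 were higher and 3 lower at 24 h; with the sets as a term, 2 were lower at 16 h and 4 at 24 h.

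DNAJB4 (chromosome 6, 135243927 to 135281376), an HSP40 abundant in muscle, had the largest fall of the class. Its level lay between 205 and 606 CPM in the 9 controls, with a median of 405 CPM. At 4 h the libraries stood at 193, 583, 804 and 652 CPM, at 16 h at 53.9, 77.7, 83.3 and 113 CPM, and at 24 h at 75.0, 107, 149 and 99.8 CPM. The 4 h libraries lay below, within and above the control range, and every library from 16 h to 24 h was below every control. On the log2 scale the change was -2.34 ± 0.40 (SE, edgeR adjusted p = 1.94e-05) at 16 h, and it was -2.16 at 20 h and -1.94 at 24 h. DNAJB4 was also lower at 8 h (log2 change -0.95 ± 0.37 SE, edgeR adjusted p = 0.0287), when its libraries, at 178, 209, 182 and 288 CPM, overlapped the controls. Against the controls of the same set it was -1.90 (edgeR adjusted p = 0.00204) at 16 h.

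DNAJB1, the classical HSP40 that is a textbook target of HSF1, was also lower. Its controls lay between 48.0 and 269.9 CPM, while its libraries stood at 20.9, 32.9, 39.6 and 70.0 CPM at 16 h and 39.0, 32.7, 33.7 and 52.6 CPM at 20 h, overlapping the lowest controls. The log2 changes were -1.96 ± 0.46 (SE, edgeR adjusted p = 0.00076) and -2.01 ± 0.47 (SE, edgeR adjusted p = 0.000627). At 8 h, when HSPA8 and BAG3 were highest, 3 DNAJB1 libraries were between 60.5 and 75.5 CPM and the fourth at 328 CPM, with no call (log2 change -0.26 ± 0.42 SE, edgeR adjusted p = 0.615); edgeR called it without 8 h replicate 4 (adjusted p = 0.0143), and lower. DNAJB5, a close relative of DNAJB4, lay between 103 and 279.7 CPM in the controls and at 60.1, 64.7, 46.5 and 56.4 CPM at 24 h (log2 change -1.69 ± 0.33 SE, edgeR adjusted p = 8.04e-05). DNAJB2, an HSP40 that targets clients to the proteasome, was lower at 8 h and from 16 h to 24 h, with a log2 change of -0.79 at 16 h. DNAJB6, whose variants cause a limb-girdle muscular dystrophy in humans, was higher at 8 h (log2 change 0.51) and lower at 48 h (log2 change -0.58). DNAJB12 and DNAJB14, of the endoplasmic reticulum membrane, had log2 rises of 0.33 at 8 h and 0.47 at 20 h. DNAJB9 was called at no time with all libraries. It was called higher by edgeR at 8 h without control replicate 2 (adjusted p = 0.0448). At 20 h edgeR called it higher without 20 h replicate 1 (adjusted p = 0.00918). With sets in the model, edgeR did not call DNAJB4 at 8 h (adjusted p = 0.224), DNAJB1 at 16 h (adjusted p = 0.0679), DNAJB2 at 8 h (adjusted p = 0.153) and 16 h (adjusted p = 0.302), DNAJB6 at 48 h (adjusted p = 0.224) or DNAJB12 at 8 h (adjusted p = 0.262). Single libraries decided the edgeR call of DNAJB4 at 8 h (8 h replicate 1, 2 or 3, adjusted p 0.0655 to 0.0861), DNAJB2 at 8 h (8 h replicate 1, 2 or 3, adjusted p 0.0617 to 0.0764) and DNAJB2 at 20 h (control replicate 5 or 7 or 20 h replicate 2, 3 or 4, adjusted p 0.0606 to 0.158). In edgeR it also ended the call of DNAJB2 at 24 h (24 h replicate 3, adjusted p = 0.103), DNAJB6 at 8 h (8 h replicate 1, 2 or 3, adjusted p 0.05 to 0.102) and DNAJB6 at 48 h (control replicate 2, 3, 4 or 8 or 48 h replicate 1, 2 or 3, adjusted p 0.0509 to 0.191). The edgeR call was likewise lost for DNAJB12 at 8 h (control replicate 1, 3, 4, 8 or 9 or 8 h replicate 1, 2 or 3, adjusted p 0.0551 to 0.114) and DNAJB14 at 20 h (20 h replicate 4, adjusted p = 0.11).

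**Figure D4:**
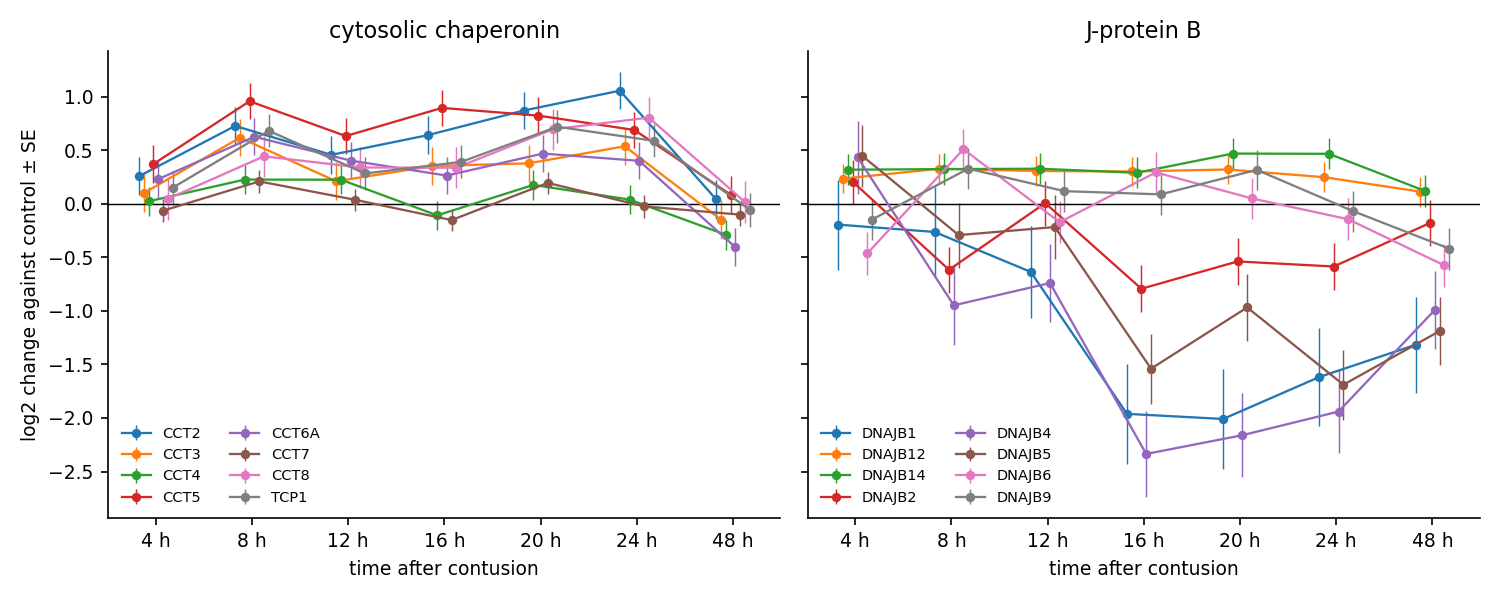
Log2 change against control (± SE from edgeR) by time for the 8 cytosolic chaperonin subunits and the 8 class B J-proteins. Chaperonin subunits lie mostly above 0 from 8 h to 24 h and return towards 0 at 48 h, whereas DNAJB1, DNAJB4 and DNAJB5 lie furthest below 0 from 16 h to 24 h.

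Of the 4 class A J-proteins, 2 were higher at 8 h and another was lower from 16 h. DNAJA1 and DNAJA2, cytosolic partners of HSPA8, were those higher at 8 h. DNAJA1 lay between 49.7 and 189 CPM in the controls and at 315, 244, 164 and 205 CPM at 8 h, overlapping the highest controls (log2 change 1.17 ± 0.32 SE, edgeR adjusted p = 0.00305). DNAJA2 varied far less between controls, from 58.1 to 70.7 CPM, and its 8 h libraries at 115, 109, 78.0 and 83.9 CPM were all higher (log2 change 0.57 ± 0.13 SE, edgeR adjusted p = 0.000399). DNAJA3, the mitochondrial member, lay between 81.4 and 147 CPM in the controls, and at 73.9, 69.0, 67.9 and 61.8 CPM at 20 h, with no overlap (log2 change -0.69 ± 0.17 SE, edgeR adjusted p = 0.000918). It was called lower from 16 h to 48 h. DNAJA4 was called at no time. Without 1 library, edgeR no longer called DNAJA3 at 48 h (48 h replicate 1, adjusted p = 0.0555).

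Among the 19 class C J-proteins, 5, 4, 4 and 5 were higher at 8, 16, 20 and 24 h, and 4, 7, 4 and 4 were lower. Of all genes, 25.8%, 25.3%, 25.4% and 26.8% were higher at these times, and 28.2%, 27.8%, 26.2% and 27.1% lower. DNAJC19, a subunit of the motor that imports proteins into the mitochondrial matrix, lay between 30.7 and 74.9 CPM in the 9 controls, with a median of 62.6 CPM. Its 16 h libraries stood at 19.6, 20.4, 21.9 and 26.2 CPM and its 24 h libraries at 17.2, 26.4, 18.0 and 24.9 CPM, all below the controls. The log2 changes were -1.42 ± 0.25 (SE, edgeR adjusted p = 3.12e-05) and -1.45 ± 0.25 (SE, edgeR adjusted p = 2.13e-05). DNAJC28, a J-domain protein, lay between 5.12 and 14.8 CPM in the controls. At 8 h its libraries were at 1.27, 0.781, 1.60 and 3.09 CPM, all below the controls (log2 change -2.37 ± 0.38 SE, edgeR adjusted p = 5.57e-06). At 20 h they were at 2.33, 2.72, 1.68 and 1.81 CPM, again below all controls (log2 change -2.01 ± 0.36 SE, edgeR adjusted p = 3.73e-05).

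DNAJC9 was called lower at 8, 16, 20 and 24 h, DNAJC11 at 16 h and 48 h, and DNAJC18 was lower at 16 h and higher at 24 h. DNAJC25 was higher at 8 h and 16 h, DNAJC17 at 4 h and 24 h, DNAJC2 at 8 h and DNAJC8 at 12 h. The log2 changes of these 7 members at those times lay between -0.70 (DNAJC9 at 16 h) and 0.63 (DNAJC25 at 8 h). DNAJC1, DNAJC5, DNAJC7 and DNAJC24 were called at no time with all libraries. Without control replicate 2, edgeR called DNAJC1 higher at 16 h (adjusted p = 0.036). At 4 h it called DNAJC5 lower without 4 h replicate 3 (adjusted p = 0.0188) and DNAJC7 higher without control replicate 5 (adjusted p = 0.0427). At 24 h it called DNAJC24 higher without control replicate 9 or 24 h replicate 1 (adjusted p 0.026 to 0.0363). When sets were a term, edgeR gave no call for DNAJC9 at 8 h (adjusted p = 0.121), DNAJC11 at 16 h (adjusted p = 0.0592) and 48 h (adjusted p = 0.44), DNAJC18 at 16 h (adjusted p = 0.28) and 24 h (adjusted p = 0.142), DNAJC25 at 8 h (adjusted p = 0.132) and 16 h (adjusted p = 0.331), DNAJC17 at 4 h (adjusted p = 0.223) and 24 h (adjusted p = 0.0627), DNAJC2 at 8 h (adjusted p = 0.0559) or DNAJC8 at 12 h (adjusted p = 0.343). The edgeR call was lost without 1 library for DNAJC9 at 8 h (8 h replicate 1 or 3, adjusted p 0.0501 to 0.051), DNAJC11 at 48 h (control replicate 2, 3, 4, 5 or 8 or 48 h replicate 1, 2 or 3, adjusted p 0.0501 to 0.18) and DNAJC18 at 16 h (control replicate 2, 3, 5, 6, 7, 8 or 9 or 16 h replicate 1 or 2, adjusted p 0.0503 to 0.241). In edgeR it also ended the call of DNAJC18 at 24 h (control replicate 1 or 4 or 24 h replicate 1, 3 or 4, adjusted p 0.0502 to 0.118), DNAJC2 at 8 h (control replicate 1, 2, 3, 6, 8 or 9 or 8 h replicate 1, 2 or 4, adjusted p 0.0582 to 0.104) and DNAJC8 at 12 h (12 h replicate 3 or 4, adjusted p 0.0568 to 0.101).

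The endoplasmic reticulum and endosomal members of class C went in both directions. DNAJC16 (log2 change 1.09 ± 0.15 SE, edgeR adjusted p = 7.03e-07) stood at 24.2, 30.8, 28.7 and 24.1 CPM at 24 h beside 9.27 to 14.9 CPM in the controls, with no overlap. DNAJC14, an endoplasmic reticulum membrane protein, had narrow controls, 25.2 to 31.5 CPM, and was higher from 8 h to 48 h. It was highest at 20 h, at 49.9, 42.8, 49.8 and 58.1 CPM (log2 change 0.81 ± 0.11 SE, edgeR adjusted p = 9.81e-07). DNAJC3, a luminal partner of HSPA5, was higher at 8, 16 and 20 h, with log2 changes of 0.50, 0.53 and 0.55. DNAJC10, a disulfide reductase of the same lumen, was lower at 8 h and from 16 h to 24 h, with log2 changes of -0.52 at 8 h and -0.59 at 16 h. DNAJC13, which works on endosomes, was higher at 8, 20 and 24 h, with a log2 change of 0.46 at 20 h. DNAJC15, a J-protein of the mitochondrial inner membrane, was higher at 12 h (log2 change 0.73) and lower at 16 h (log2 change -0.68). With the library sets as a term, edgeR did not call DNAJC14 at 48 h (adjusted p = 0.0799), DNAJC3 at 8 h (adjusted p = 0.163) and 16 h (adjusted p = 0.321), DNAJC10 at 8 h (adjusted p = 0.0556) and 16 h (adjusted p = 0.175), DNAJC13 at 20 h (adjusted p = 0.157) and 24 h (adjusted p = 0.0745) or DNAJC15 at 16 h (adjusted p = 0.322). Leaving out 1 library ended the edgeR call of DNAJC14 at 12 h (12 h replicate 1, adjusted p = 0.121), DNAJC14 at 48 h (48 h replicate 1 or 3, adjusted p 0.0869 to 0.277) and DNAJC3 at 8 h (8 h replicate 1 or 3, adjusted p 0.0657 to 0.0761). In edgeR it also ended the call of DNAJC3 at 16 h (16 h replicate 1, adjusted p = 0.0589), DNAJC3 at 20 h (20 h replicate 4, adjusted p = 0.104) and DNAJC13 at 8 h (control replicate 1, 2, 3, 4 or 9 or 8 h replicate 1, 2 or 3, adjusted p 0.0506 to 0.148). The edgeR call was likewise lost for DNAJC13 at 20 h (20 h replicate 4, adjusted p = 0.0647), DNAJC13 at 24 h (24 h replicate 3, adjusted p = 0.368) and DNAJC15 at 12 h (12 h replicate 3, adjusted p = 0.0929).

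Subunits of the cytosolic chaperonin were called higher at 5 of 7 times and lower at none. Of its 8 subunits, none was called at 4 h or 48 h, and 5, 2, 3, 5 and 5 were called at 8, 12, 16, 20 and 24 h. Of all genes, 25.8%, 16.3%, 25.3%, 25.4% and 26.8% were called higher at these 5 times. The median log2 change of the 8 was 0.62 at 8 h and 0.56 at 24 h, where the median of all genes was -0.07 and -0.02. With column totals, 6 were higher at 16 h and all 8 at 20 h and 24 h. A term for the sets gave all 8 higher at 8 h and 2 at 16 h, with 4 at each of 20 h and 24 h.

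CCT2 lay between 123 and 196 CPM in the controls. It stood at 300.4, 291, 256 and 258 CPM at 8 h and 302, 312, 379.7 and 394 CPM at 24 h, in each case above all controls. The log2 changes were 0.73 ± 0.18 (SE, edgeR adjusted p = 0.000914) and 1.05 ± 0.17 (SE, edgeR adjusted p = 1.06e-05). CCT5 lay between 91.5 and 161 CPM in the controls and at 260.1, 248, 227 and 195 CPM at 8 h, again with no overlap (log2 change 0.96 ± 0.17 SE, edgeR adjusted p = 2.53e-05). TCP1, the alpha subunit, had log2 changes of 0.68 at 8 h and 0.72 at 20 h. On the same log2 scale CCT3 rose by 0.62 and CCT6A by 0.62 at 8 h, and CCT8 by 0.80 at 24 h. CCT4 and CCT7 were called at no time with all libraries, with log2 changes of 0.22 and 0.21 at 8 h. Without control replicate 8, edgeR called CCT7 higher at 8 h (adjusted p = 0.0463). Without control replicate 1, it called CCT4 lower at 48 h (adjusted p = 0.048). At 48 h CCT2 stood at 260.2, 137, 178 and 111 CPM, inside and beyond both ends of the control range.

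The 10 listed genes of prefoldin and related cofactors, which hand unfolded actin and tubulin to the chaperonin, were called in both directions. At 8, 16, 20 and 24 h 2, 2, 2 and 3 were higher, and 3, 4, 4 and 3 were lower, where 54.0%, 53.1%, 51.5% and 53.9% of all genes were called in either direction. With column totals 2, 4, 3 and 5 were higher and 3, 1, none and 1 lower, and with sets in the model 2, 1, 3 and 1 were higher and 1, 1, 5 and 4 lower. RUVBL1, an AAA+ ATPase that works with prefoldin-like proteins, was higher from 4 h to 24 h, at 92.1, 88.7, 80.7 and 75.1 CPM at 8 h beside 36.6 to 51.6 CPM in the controls (log2 change 0.91 ± 0.13 SE, edgeR adjusted p = 6.86e-07). The prefoldin subunits PFDN1 and VBP1 were lower at 16 h, with log2 changes of -1.03 and -0.38. With sets in the model, edgeR did not call CCT2 at 12 h (adjusted p = 0.246) or VBP1 at 16 h (adjusted p = 0.129). Neither with sets in the model nor with column totals was any of the 10 listed genes called at 4 h, RUVBL1 included. Single libraries decided the edgeR call of CCT2 at 12 h (control replicate 1, 2, 4, 6, 7 or 9 or 12 h replicate 1, 2 or 4, adjusted p 0.056 to 0.21) and CCT5 at 12 h (12 h replicate 1, adjusted p = 0.0518).

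Of the mitochondrial chaperonin pair, HSPE1 was called lower at 5 times. HSPD1 (HSP60) lay between 170.4 and 305 CPM in the controls and at 226, 227, 218 and 231 CPM at 16 h, and was called at no time with all libraries. At 48 h its log2 change was -0.43 ± 0.16 (SE, edgeR adjusted p = 0.0537), and edgeR called it without control replicate 1, 6 or 7 (adjusted p 0.025 to 0.0453). Its co-chaperonin HSPE1 (HSP10) lay between 203 and 355 CPM and fell to 121, 117, 137 and 170.1 CPM at 16 h, below all controls (log2 change -1.04 ± 0.22 SE, edgeR adjusted p = 0.000212). HSPE1 was also lower at 8, 20, 24 and 48 h, with log2 changes of -0.87, -0.67, -0.90 and -0.65. When libraries were scaled by column totals, HSPE1 was not called at 20, 24 or 48 h, and HSPD1 was called higher at 24 h (log2 change 0.48, edgeR adjusted p = 0.0461). Whether the fall of HSPE1 differed from that of HSPD1 was not tested, and pseudogenes of both genes are known in mammals.

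None of the 9 listed genes of mitochondrial folding and proteolysis was higher at 16, 20 or 24 h, where 4, 4 and 3 were lower and 27.8%, 26.2% and 27.1% of all genes were. With column totals 2, 2 and 1 were higher and 1, 2 and none lower, and with sets in the model none, 1 and none were higher and 2, 2 and 5 lower. TRAP1, the mitochondrial HSP90, stood at 43.3, 27.5, 23.9 and 31.5 CPM at 20 h beside 47.9 to 72.7 CPM in the controls (log2 change -0.90 ± 0.14 SE, edgeR adjusted p = 5.41e-06), and was called lower from 4 h to 24 h. CLPP, the protease of the mitochondrial matrix, was lower from 4 h to 16 h, with a log2 change of -0.86 ± 0.19 (SE, edgeR adjusted p = 0.000419) at 8 h. CLPB, a mitochondrial disaggregase, was higher at 8 h (log2 change 0.50). Once the sets were a term, edgeR did not call HSPE1 at 16 h (adjusted p = 0.0617). It then called none of the 9 listed genes at 4 h, TRAP1 and CLPP included. Without 1 library, edgeR no longer called HSPE1 at 48 h (48 h replicate 1 or 3, adjusted p 0.138 to 0.19).

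Endoplasmic reticulum folding genes beside HSPA5 were called almost only higher. Of 20 listed, 3, 10, 6, 14, 15, 12 and 5 were higher at the 7 times in order, and 2 were lower at 8 h and none at the other times. In the same order 9.22%, 25.8%, 16.3%, 25.3%, 25.4%, 26.8% and 12.8% of all genes tested were higher. With sets in the model 1, 6, 6, 7, 14, 12 and 5 of the 20 were higher, and with column totals none, 7, 3, 17, 19, 17 and 12; the sets left 1 lower at 8 h and 1 at 16 h, and column totals none. The median log2 change of the 20 was 0.85 at 20 h, and that of all genes was -0.04. CALR, the calcium-binding lectin chaperone, lay between 96.4 and 170.3 CPM in the controls and at 449.9, 347, 438 and 391 CPM at 24 h, with no overlap (log2 change 1.53 ± 0.21 SE, edgeR adjusted p = 7.31e-07). SEL1L, the scaffold of the ubiquitin ligase that clears misfolded proteins from this compartment, was at 155, 139, 215 and 178 CPM at 24 h beside 59.5 to 91.7 CPM (log2 change 1.09 ± 0.15 SE, edgeR adjusted p = 7.31e-07). P4HB, protein disulfide isomerase, had a log2 change of 1.07 ± 0.18 (SE, edgeR adjusted p = 1.59e-05) at 16 h.

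Of the 11 listed sarcomere chaperones and partners, 5 were higher at each time from 8 h to 24 h, with 2 lower at 8, 12, 20 and 24 h and 5 lower at 16 h. The share of the 11 called ran from 63.6% to 90.9% over these times, where that of all genes ran from 31.0% to 54.0%. With sets in the model, 5, 4, 3, 5 and 4 were higher in order of time and 2, 1, 2, 4 and 2 lower. Column totals gave 5, 5, 5, 6 and 5 higher and 2, 2, 3, 2 and 2 lower. FLNC (filamin C), the client of the HSPB8 and BAG3 complex, lay between 1572 and 5218 CPM in the controls. It stood at 1647, 12703, 14305 and 5510.0 CPM at 4 h and 25008, 22412, 25009.7 and 14482 CPM at 8 h, where it was above all controls (log2 change 2.72 ± 0.34 SE, edgeR adjusted p = 1.28e-07). SQSTM1 (p62), the receptor that brings ubiquitinated cargo to autophagosomes, was at 3054, 2581, 2970.3 and 3275 CPM at 16 h beside 479 to 1008 CPM (log2 change 2.12 ± 0.21 SE, edgeR adjusted p = 6.36e-09). KBTBD13, a muscle adaptor of a cullin ubiquitin ligase, fell from 2.83 to 10.1 CPM in the controls to between 0.0777 and 0.559 CPM at 20 h (log2 change -4.62 ± 0.92 SE, edgeR adjusted p = 0.000118), where single libraries were near or below the floor.

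Of the transcription factors, HSF1 was called higher at 8 h and 16 h and HSF2 was called in both directions. HSF1 (chromosome 4, 463531 to 486483) lay between 5.84 and 19.8 CPM in the controls. Its libraries stood at 27.2, 20.7, 19.0 and 13.4 CPM at 8 h and 19.5, 14.2, 16.5 and 15.7 CPM at 16 h, with log2 changes of 1.04 ± 0.26 (SE, edgeR adjusted p = 0.00132) and 0.75 ± 0.26 (SE, edgeR adjusted p = 0.0165). The 2 controls with the highest HSF1, replicates 2 and 1 at 19.8 and 12.3 CPM, were those of set 1, which holds the 16 h libraries and 3 of the 8 h libraries. Against these controls the log2 changes were 0.48 (edgeR adjusted p = 0.245) at 8 h and 0.04 (edgeR adjusted p = 0.927) at 16 h, and neither was called.

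HSF2, which forms trimers with HSF1 and has roles in development, lay between 23.1 and 99.1 CPM in the controls and was higher at 4 h, at 42.8, 114, 146 and 79.0 CPM (log2 change 0.89 ± 0.29 SE, edgeR adjusted p = 0.0299). It was lower at 20 h (log2 change -0.74) and at 48 h, when all 4 libraries were at 22.0, 22.5, 22.3 and 23.9 CPM (log2 change -1.18 ± 0.32 SE, edgeR adjusted p = 0.00864). ZFAND2A (AIRAP; chromosome 3, 756427 to 776028), a stress-induced zinc finger protein that binds the proteasome, had the largest rise of all members. It lay between 1.78 and 13.1 CPM in the 9 controls, with a median of 3.85 CPM, stood at 13.1, 12.9, 4.27 and 1.87 CPM at 4 h, and rose to 65.2, 69.7, 46.4 and 25.4 CPM at 8 h. At 24 h it was at 103, 112, 80.6 and 117 CPM. Its libraries at 8, 16, 20 and 24 h were all above the controls, and at 12 h, at 126, 83.6, 30.5 and 7.21 CPM, the fourth library was inside their range. ZFAND2A had a log2 change of 3.11 ± 0.50 (SE, edgeR adjusted p = 6.53e-06) at 8 h and 4.10 ± 0.50 (SE, edgeR adjusted p = 1.45e-07) at 24 h, and at 48 h it was 0.75 ± 0.53 (SE, edgeR adjusted p = 0.333). With sets in the model, edgeR did not call HSF1 at 8 h (adjusted p = 0.106) and 16 h (adjusted p = 0.894) or HSF2 at 4 h (adjusted p = 0.552) and 48 h (adjusted p = 0.139). Single libraries decided the edgeR call of HSF1 at 16 h (16 h replicate 1, adjusted p = 0.0656), HSF2 at 4 h (4 h replicate 2 or 3, adjusted p 0.122 to 0.197) and HSF2 at 20 h (control replicate 3, 4 or 8 or 20 h replicate 1, 2, 3 or 4, adjusted p 0.0536 to 0.104). In edgeR it also ended the call of HSF2 at 48 h (48 h replicate 1, adjusted p = 0.058).

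BAG1, BAG2 and HSPBP1 are nucleotide exchange factors of HSP70. HSPBP1 was higher at 8, 12, 16 and 20 h, at 39.5, 41.3, 35.2 and 27.7 CPM at 8 h beside 13.4 to 26.4 CPM in the controls (log2 change 1.07 ± 0.17 SE, edgeR adjusted p = 8.17e-06). BAG2, which inhibits the ubiquitin ligase CHIP, lay between 11.4 and 24.0 CPM in the controls. It fell to 3.18, 5.14, 4.42 and 5.09 CPM at 16 h, below all controls (log2 change -2.05 ± 0.25 SE, edgeR adjusted p = 1.67e-07), and stood at 14.7, 18.3, 25.1 and 16.5 CPM at 12 h, inside and just above the control range. BAG1 was higher at 8 h (log2 change 0.49) and lower at 12 h and 20 h (log2 changes -0.45 and -0.44). BAG6 was lower at 12 h (log2 change -0.43) and BAG4 was called at no time. HSPB11, an intraflagellar transport protein, and HSPBAP1, named for binding HSPB1, were lower at 8 h, with log2 changes of -0.92 and -0.80. Once the sets were a term, edgeR did not call BAG1 at 8 h (adjusted p = 0.116), 12 h (adjusted p = 0.0783) and 20 h (adjusted p = 0.0552), BAG6 at 12 h (adjusted p = 0.106) or HSPBAP1 at 8 h (adjusted p = 0.431). Without 1 library, edgeR no longer called BAG1 at 12 h (12 h replicate 1 or 2, adjusted p 0.0834 to 0.0862) and BAG6 at 12 h (12 h replicate 3, adjusted p = 0.0954).

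Control muscle was itself uneven for several members. The highest control was 8.75 times the lowest for HSPH1, 7.64 times for DNAJA4, 7.38 times for ZFAND2A, 6.23 times for HSPB1, 5.63 times for DNAJB1 and 4.30 times for HSF2. The median of that ratio over the 64 members was 1.96. Control replicate 8 was the highest or second highest library for HSPH1, DNAJA4, HSPB1, DNAJB1, HSF2, HSPBAP1 and DNAJA1, and control replicates 5 and 7 gave the lowest value for 6 of the 8 members with the widest range. Of these 8 members, HSPH1, DNAJA4 and HSPB1 were called at no time.

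**Figure D5:**
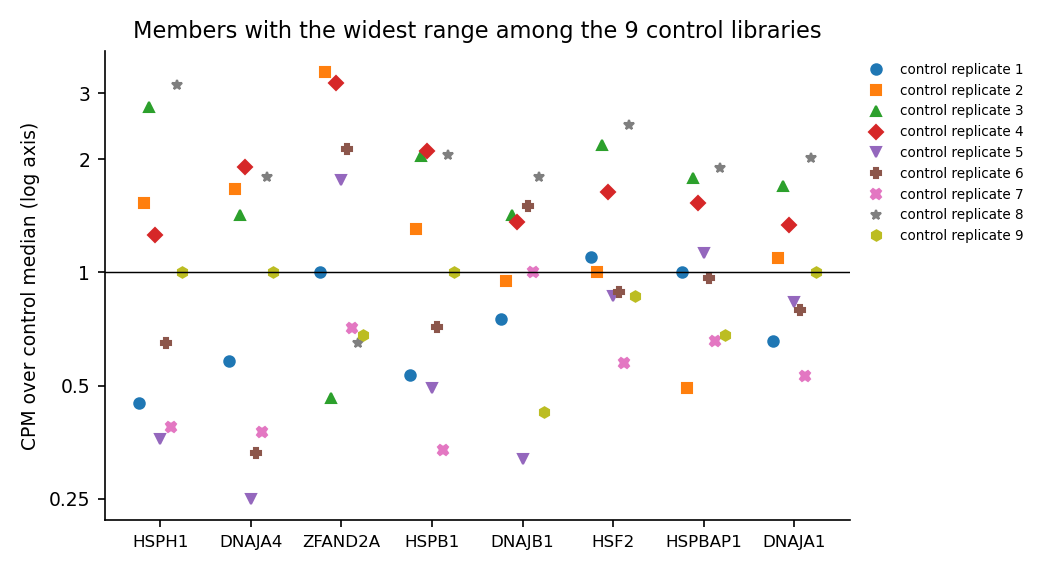
CPM of the 8 members with the widest control range in each of the 9 control libraries, as a multiple of the control median (log axis; symbols and colours mark libraries). Control replicates 3, 4 and 8 lie mostly above 1 and replicates 5 and 7 mostly below it, but for ZFAND2A replicates 3 and 8 lie below 1 and replicate 5 above.

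Injured groups were also compared with each other. From 4 h to 8 h, 21 members changed (13 higher, 8 lower), where 31.3% of all genes did and 14.0% did with a log2 change of at least 1 in size. The largest rises were those of ZFAND2A (log2 change 2.70 ± 0.65 SE, edgeR adjusted p = 0.00328), HSF1 (log2 change 1.31), BAG3 (log2 change 1.23), HSPA8 (log2 change 1.15) and HSPB8 (log2 change 1.06), and DNAJC28 fell (log2 change -1.83). From 16 h to 48 h, 16 members changed (5 higher, 11 lower; 24.4% of all genes, 10.5% with a log2 change of at least 1 in size), among them ZFAND2A (log2 change -2.78 ± 0.64 SE, edgeR adjusted p = 0.00226), HSPB8 (log2 change -1.78), BAG3 (log2 change -1.07) and HSPH1 (log2 change -1.51). With the library sets as a term edgeR called no member in either comparison, with 12 and 8 members at an unadjusted p under 0.05, and DESeq2 without the sets called 23 and 18. Of all 9411 genes tested, the fit with the sets called 0 from 4 h to 8 h and 180 from 16 h to 48 h. The 4 h and 8 h libraries share no set, and neither do those of 16 h and 48 h.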

How the data were processed

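Whole muscle RNA was extracted with Trizol, made into libraries with a NEBNext Ultra kit and sequenced as 150-base reads (HiSeq-2500), all per the labels' protocols. The authors deposited 1 table of raw counts per gene, with 9418 rows and 37 libraries. FastQC, MultiQC, Trimmomatic, HISAT2 2.2.1 and HTSeq, with the build Sscrofa11.1, are named per the submitters' processing notes. The strand setting and annotation are not given in the sources used here. No row had a largest count under 101, so the table holds selected genes, and it held 0 other per-sample columns. Of the 64 members and HSP90AB1 and HSP90B1, 64 of 66 matched an Ensembl ID and 65 a RefSeq span by symbol. No promoter or protein sequence was used here.

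The counts were scaled by TMM and tested in edgeR 4.0.16 (R 4.3.3, limma 3.58.1) with filterByExpr, robust quasi-likelihood fits over all 37 libraries with group as the sole term, and Benjamini-Hochberg adjustment over 9411 genes with a threshold of 0.05. SE is the absolute log2 change over the square root of F. Libraries of 1 group differed by more than sampling noise, with a lowest chi-square per degree of freedom of 16.1 over genes with at least 20 counts. On simulated counts over 9411 genes, 68% of log2 changes of 1 and 96% of those of 2 were recovered for 8 h against control (7 false among 171 calls), and 67% and 93% for 48 h against control (3 false among 163). Only 100 genes were changed at each size, libraries were independent and there were no library sets. False calls that arise from sets, shared pigs or wider change were therefore not measured.

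Sets of libraries were read from the values, as in an earlier analysis of these data: set 3 had totals above 20 M; of the others, set 1 had C1QBP above 8 CPM, set 2 NDUFAF8 under 4 CPM, and sets 4 and 5 ND6 up to and above 32 CPM. Alternatives were other scalings (RLE and column totals), no filter and a filter of 5 CPM in 4 libraries, only the groups compared, the replicate number as a block, the sets as a term, controls of the same set only, DESeq2 1.42.0, and each library left out in turn. Added after seeing the data were fits without the 3 libraries above 20 M, without the 8 of set 2, and without 48 h replicates 2 and 4.

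Members and lists were chosen with earlier results of these data known. Values in every library are given for up to 3 members a class with the smallest p over the 7 times and at least 5 CPM in a group, for ZFAND2A, HSF1 and HSF2, and for up to 3 genes of each companion list. Other members were named where called with a log2 change of 1 or more in size, at most 12 a time. The further members named in the text were chosen after their values were seen.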

Additional observations from a re-analysis of the deposited data

Results flagged for a closer look

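Single libraries stood apart from the rest of their group in 17 of 248 sets of a named member and a group, where chance flags about 1 in 20. At 8 h, replicate 4 was far from the other 3 libraries for DNAJB1 at 328 CPM (others 60.5 to 75.5), HSPD1 at 304 CPM (220.4 to 225), HSPE1 at 242 CPM (118 to 134), HSPB3 at 43.1 CPM (32.0 to 33.3), HSPA14 at 17.9 CPM (20.8 to 21.3) and HSPB8 at 4466 CPM (6398 to 6671). This library was the 1 of the 8 h libraries in set 5, the others being in set 1. Replicate 1 of 8 h was low for HSF2, at 53.6 CPM (60.7 to 61.4).

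Control replicate 2, of set 1, was high for HSF1 at 19.8 CPM (5.84 to 12.3), BAG1 at 125 CPM (43.7 to 76.7) and HSPBP1 at 26.4 CPM (13.4 to 18.7). At 4 h, replicate 1 was high for BAG2 at 26.5 CPM (12.8 to 13.8), HSPE1 at 284 CPM (192 to 206) and HSPB11 at 8.69 CPM (2.40 to 3.47). Replicate 4 was high for DNAJC28 at 12 h, at 5.84 CPM (2.14 to 2.34), for HSPA14 at 24 h, at 44.8 CPM (34.0 to 35.1), and at 48 h for DNAJB1 at 121 CPM (38.4 to 48.5) and BAG2 at 15.1 CPM (8.57 to 9.13).

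Times differed from each other by edgeR's test for 8 named members from 4 h to 8 h, with a log2 change of at least 1 in size. ZFAND2A rose by 2.70, HSF1 by 1.31, BAG3 by 1.23, HSPA8 by 1.15 and HSPB8 by 1.06 on the log2 scale, while DNAJC28 changed by -1.83, DNAJB4 by -1.38 and BAG2 by -1.06. From 16 h to 48 h, 9 named members did so. The log2 change was -2.78 for ZFAND2A, -1.78 for HSPB8, -1.51 for HSPH1, -1.09 for HSF1 and -1.07 for BAG3, and it was 1.34 for DNAJB4, 1.31 for HSPB3, 1.22 for BAG2 and 1.06 for DNAJC15. With the library sets as a term, edgeR called none of these 17 differences. That fit called 0 of all 9411 genes tested from 4 h to 8 h and 180 from 16 h to 48 h.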

How the results depend on the processing

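Of 281 calls of single members and companion genes, 85 were kept under every alternative computed for them; DESeq2 kept all 281, the replicate block 222, column totals 215 and the library sets 157. Controls of the same set kept 110 of the 219 calls that could be computed. With the sets as a term 16 members were called at 16 h (29 without), 3 at 48 h (12 without), and 0 from 4 h to 8 h (21 without; 12 at an unadjusted p under 0.05) and from 16 h to 48 h (16 without; 8 unadjusted). Over all 9411 genes tested, 2575 were called with the sets at 16 h (4995 without) and 1108 at 48 h (1906 without). From 4 h to 8 h 0 were called (2950 without), and from 16 h to 48 h 180 (2299 without). Against controls of the same set 19 were called at 16 h, 8 at 24 h (27 with all libraries; here 1 library against 3 controls, assumed to vary like the other groups) and 0 at 48 h (7 unadjusted). Column totals gave 41 at 24 h, the groups compared alone 4 at 48 h, and DESeq2 19 at 48 h. Over all genes, controls of the same set gave 2750 calls at 16 h and 317 at 48 h. Column totals gave 5716 over all genes at 24 h (5071 in the main fit), and at 48 h the groups compared alone gave 932 and DESeq2 2225. Without set 2, 1 member was called from 4 h to 8 h, and without 48 h replicates 2 and 4, 9 from 16 h to 48 h. Over all 9418 genes tested, these fits gave 128 and 1397 calls. The cause of these shifts was not tested.

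Leaving out 1 library gave 2 to 7 members at 4 h, 27 to 36 at 8 h, 8 to 18 at 12 h, 24 to 30 at 16 h, 20 to 33 at 20 h, 23 to 28 at 24 h, 0 to 18 at 48 h, 11 to 23 from 4 h to 8 h, 11 to 25 from 16 h to 48 h and 44 to 52 over the 7 times. Counts moved by over 1.5 times at 4 h without control replicate 5 (7), 4 h replicate 1 (7) or replicate 2 (2), at 12 h without replicate 1 (8), and at 48 h without replicate 1 (0, with 21 at an unadjusted p under 0.05), replicate 3 (2) or control replicate 4 (7). They also moved from 4 h to 8 h without 4 h replicate 1 (13), 8 h replicate 1 (11) or 8 h replicate 2 (12), and from 16 h to 48 h without 48 h replicate 1 (25). Over all genes, the main fit called 1721, 2918 and 1906 at 4, 12 and 48 h. It called 2950 from 4 h to 8 h and 2299 from 16 h to 48 h. Without the libraries named, in the same order, all-gene calls were 1916, 1954, 608, 1827, 368, 694 and 1673 against control. From 4 h to 8 h they were 1927, 1610 and 1938, and from 16 h to 48 h 2634.

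Signs turned in 13 results. Under column totals the log2 changes at 24 h were 0.35 for BAG6, 0.47 for CCT7, 0.0662 for DNAJC10, 0.0675 for DNAJC9, 0.48 for HSPD1 and 0.0306 for VBP1, and that of DNAJC18 at 16 h was 0.0685. With the sets as a term DNAJC10 stood at -0.0188 from 16 h to 48 h, and HSPBAP1 at 0.0134, PFDN1 at 0.21 and P4HB at -0.00098 from 4 h to 8 h. Without set 2 DNAJC5 stood at -0.0400 from 4 h to 8 h, and HSF2 at 12 h stood at -1.10 against controls of the same set. The replicate block called 6, 32, 14, 26, 27, 27 and 17 members at the 7 times, 20 from 4 h to 8 h, 16 from 16 h to 48 h and 46 together. Of all 9411 genes tested it called 1628, 4466, 2609, 4062, 4240, 4455 and 1798 at the 7 times. It called 2995 from 4 h to 8 h, 2330 from 16 h to 48 h and 7488 together. Replicate numbers did not pair the libraries: 44 of 112 same-numbered pairs had correlated deviations above 0.1 (median 0.02), beside 124 of 336 pairs of unlike number (median -0.02).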
